A study of Mus musculus with 12 samples.

Results

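The insulin-like growth factor (IGF) system was followed in dermal papilla (DP) cells through 9 genes, namely the ligands Igf1 and Igf2, the receptor Igf1r and the binding proteins Igfbp2, Igfbp3, Igfbp4, Igfbp5, Igfbp6 and Igfbp7. They were taken by gene symbol, and all 9 were found among the 15209 genes of the P14 table and the 15334 genes of the P16 table. DP cells are the mesenchymal cells at the base of the hair follicle, and their RNA was sequenced from 3 control and 3 Fgfr1/Fgfr2 double mutant (dMF1/2) samples at postnatal day 14 (P14) and as many at P16, 12 libraries in all. Both days are labelled anagen, the growth phase of the hair cycle. The comparison of genotypes asked how the loss of Fgf signaling in the DP altered gene expression, and the comparison of days asked what changed as anagen went on.

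The dMF1/2 mice carried Cor-cre, which drives the Cre recombinase from the Corin locus in DP cells, and were homozygous for floxed alleles of Fgfr1 and Fgfr2. Mice of both genotypes also carried a reporter allele that makes YFP after Cre has acted, and YFP-positive cells were sorted from the dissociated skin by FACS. The labels call the controls wild type. In the methods, controls either carried Cor-cre with 1 floxed copy of each receptor gene or carried the floxed alleles without Cre, and the sort on YFP requires Cre. The labels number the samples as replicates, and the paper describes each transcriptome as that of 1 mouse, so that p-values measure the spread between mice.

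IGF1 and IGF2 are secreted ligands that bind the receptor tyrosine kinase IGF1R, which signals through IRS adaptors, PI3K and AKT. The IGF binding proteins hold the ligands in the extracellular space and can limit or prolong their action, and some of them also act without the ligands. Pappalysins are secreted proteases that cut binding proteins and free the ligands, and stanniocalcins inhibit the pappalysins. IGF1 from the DP is known to act on the hair follicle epithelium, where it favors growth.

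Libraries held 19302358 to 29860750 reads over the genes of the tables. The targeted genes were not called between genotypes by limma without a block, with log2 fold changes for Fgfr1 of -0.40 at P14 and -0.50 at P16, and for Fgfr2 of -0.11 and -0.01, the last of which was between -0.086 and 0.13 with 1 library left out. Fgfr1 was called lower at P16 by DESeq2 (adjusted p = 0.0348) and, with the replicate number as a block as described further on, by limma (adjusted p = 0.0109). At P14 it was called by DESeq2 with the block (adjusted p = 0.0158), while limma with the block gave an adjusted p of 0.0691. Reads were counted per gene and not over the floxed parts, so these values do not measure how far the alleles were deleted. All 16 DP markers were found, with summed levels of 53820 to 179688 normalized reads after rescaling over both days. Markers of other cells were present as well, with dermal fibroblast markers at 124853 to 252202 and pericyte markers at 19125 to 42452, while the sums were 233 to 786 for keratinocyte markers, 544 to 984 for melanocyte markers and 184 to 443 for immune markers. Of the 10 keratinocyte markers found, Epcam was under 10 normalized reads in all 12 libraries, and Krt5 and Dsp were the highest and reached 208 and 209. Of the 8 melanocyte markers, Tyrp1 was under 10 in all libraries, while Mitf had 443 to 832, Kit reached 89 and Tyr 52. In sorted bulk RNA, fewer cells of a type and less RNA per cell cannot be told apart.

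Replicate 1 of both genotypes at P14 stood apart. In these libraries the sums of dermal fibroblast markers were 124853 in control and 128069 in dMF1/2, against 185640 to 206673 in the other P14 libraries, and the sums of dermal sheath markers were 15293 and 17015, against 30182 to 42965. Their DP marker sums of 171189 and 179688 were the highest at P14, where the others had 111817 to 146245. Of the IGF genes, Igf2, Igfbp2 and Igfbp5 set the same libraries apart, and the part of cell composition in this was not tested. At P16, replicate 1 again had the lowest dermal sheath sums, 14453 in control and 13950 in dMF1/2, against 20850 to 31943. Its DP marker sums at P16 were the lowest of each genotype, with 53820 in control and 107414 in dMF1/2, where the others had 86388 to 158912.

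All values are normalized reads, which are reads per gene divided by the size factor of the library, unless stated otherwise. To rank the genes, the values were divided by exon length. In control mice at P14, Igfbp7 (10999 ± 1206 normalized reads per kb, SD, n = 3), Igfbp3 (8973 ± 6537) and Igfbp5 (7445 ± 3541) led, and their ranges overlapped from one to the next. Igfbp6 (4069 ± 922) came next by its mean, overlapped Igfbp5 and lay above Igfbp4 (2377 ± 421) in all samples. Igfbp4 overlapped Igfbp2 (2225 ± 1683), which in turn overlapped Igf2. The ligands and the receptor closed the order with Igf2 at 902 ± 465, Igf1 at 456 ± 97.4 and Igf1r at 364 ± 13.7 normalized reads per kb. At P16, Igfbp3 stood first in control mice with 31264 ± 13236 normalized reads per kb, above Igfbp5 (8686 ± 1479) in all samples. In dMF1/2 mice at P16 it had 5579 ± 2682 and came after Igfbp5 (7735 ± 2099) and Igfbp7 (7086 ± 388), and the 3 ranges overlapped. All 9 genes were thus well above the minimum mean of 10 normalized reads that was required for testing.

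**Figure D1:**
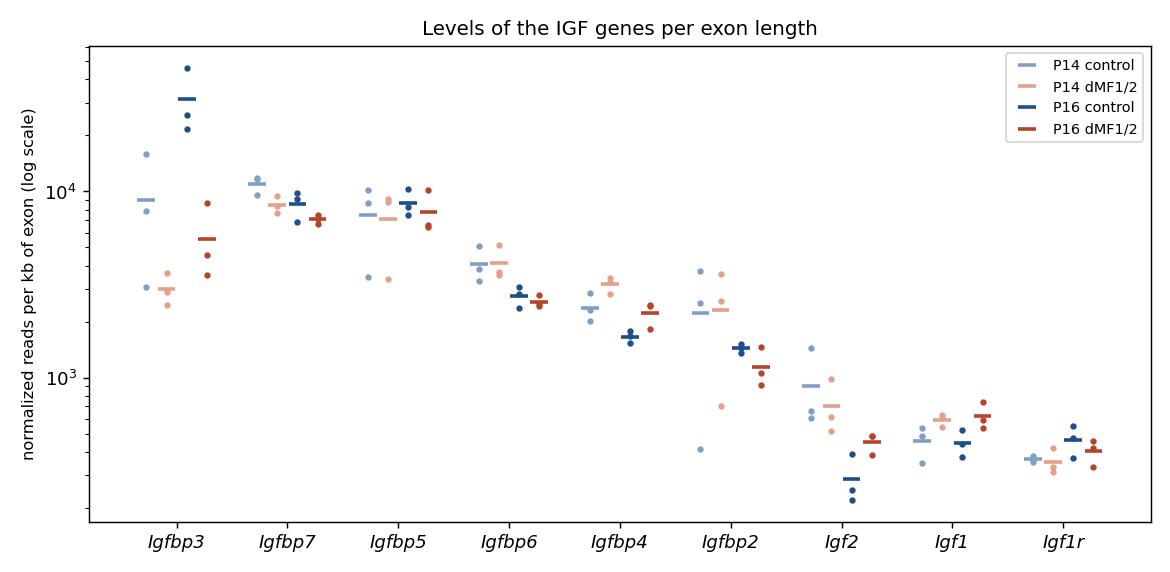
Normalized reads per kb of exon (log axis) of the 9 IGF genes, ordered by their mean over the groups, with a point for each of the 3 samples of a group and a bar at the group mean. Binding proteins lie above the ligands and the receptor in most samples, and Igfbp3 in P16 control stands highest, at a mean of 31264.

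Of the 9 genes, Igfbp3 was the one called between genotypes, with lower levels in dMF1/2 mice at P16. Differences were tested with limma after 1 was added to each value and the log2 taken, p-values were adjusted over all genes tested, and genes under 0.05 were called. At P16, 1 of the 9 members was called, where 4.32% of 13457 genes were called. At P14, 0 of the 9 were called, where 0.0525% of 13334 genes were called, and 3 had an unadjusted p under 0.05 (Igfbp3, Igfbp4 and Igfbp7), as 7.32% of all genes did. Without a block, DESeq2 also called 0 of the 9 at P14 (1.4% of all genes), as did edgeR (0.015%), and at P16 DESeq2 called 3 of the 9 (7.88%). The median log2 fold change of the members was -0.05 at P14 and -0.19 at P16, and that of all genes was 0.00 on both days.

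Within a day, libraries with the same replicate number deviated together from their group means, so the genotypes were also compared with the replicate number as a block, which sets each dMF1/2 sample against the control sample of the same number. With the block, 4 of the 9 members were called at P16 (Igf1, Igf2, Igfbp3 and Igfbp4), where 10.4% of all genes were called. At P14 the block called 0 of the 9, where 1.68% of all genes were called. Igf1, Igfbp3 and Igfbp4, 3 of the 9, did not overlap between genotypes at P16, as for 24.5% of all genes, and Igf1 and Igfbp7 did not overlap at P14, as for 12.7% of all genes.

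**Figure D2:**
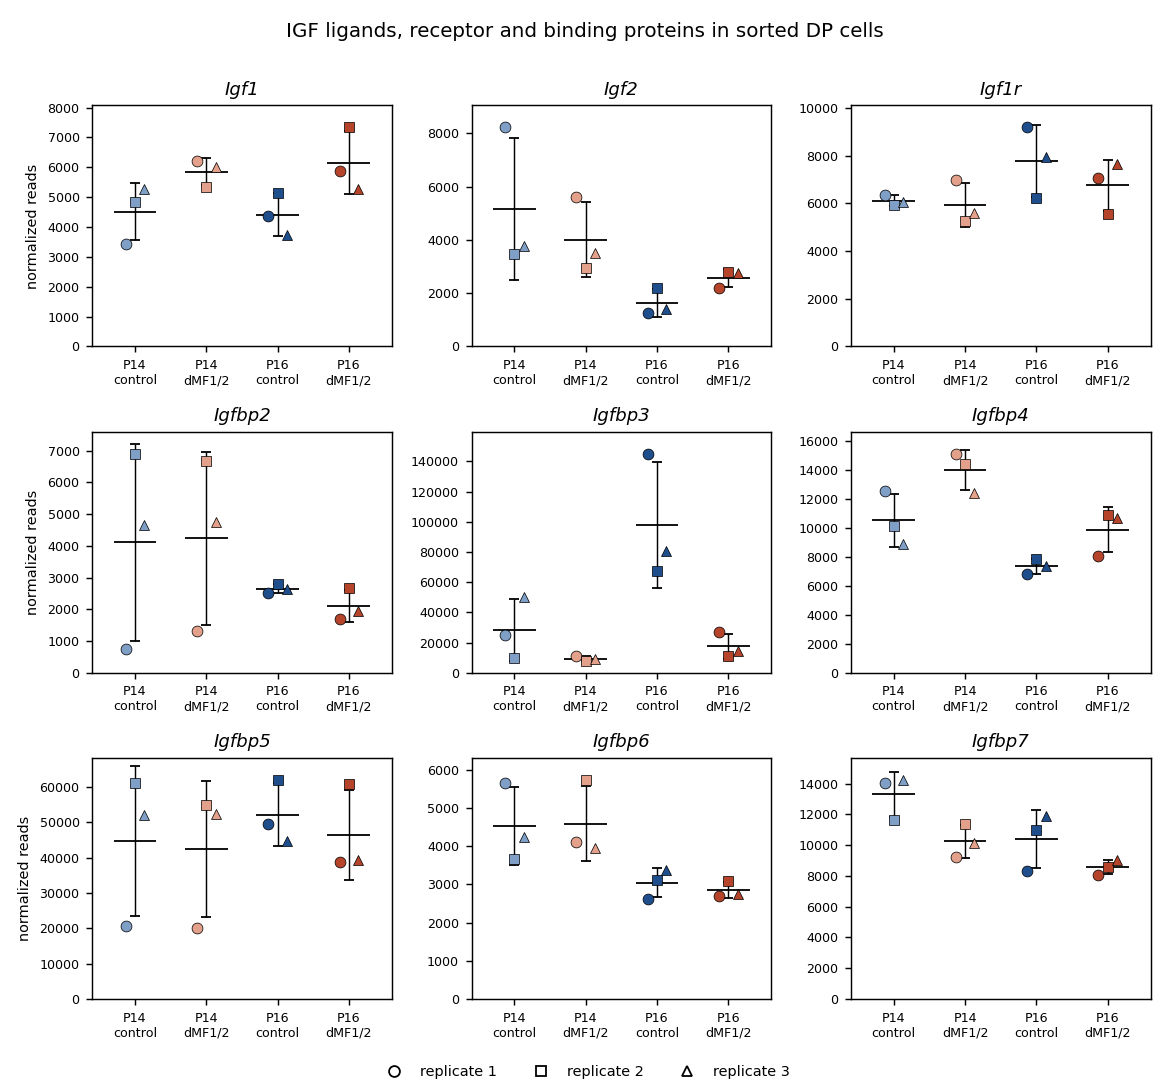
Normalized reads (linear axes from 0) of each IGF gene in the 12 libraries, with the symbol showing the replicate number, a bar at the group mean and whiskers of 1 SD (n = 3). At P16 the 3 dMF1/2 samples lie below the 3 control samples for Igfbp3 and above them for Igf1 and Igfbp4, while at P14 replicate 1 of both genotypes is lowest for Igfbp2 and Igfbp5 and highest for Igf2.

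Igf1, the ligand that mediates much of the action of growth hormone, lies on chromosome 10 (87858265 to 87937042 of GRCm38, plus strand). At P14 it had 3435, 4824 and 5289 normalized reads in control replicates 1, 2 and 3, and 6217, 5356 and 6006 in dMF1/2 replicates 1, 2 and 3. At P16 it had 4353, 5151 and 3726 in control and 5870, 7339 and 5270 in dMF1/2. Every dMF1/2 sample lay above every control sample on both days (exact permutation test on each day, two-sided p = 0.1, the smallest that 3 against 3 allows). On the log2 scale the difference was 0.40 (standard error, SE, of 0.17, adjusted p = 0.684) at P14 and 0.48 (SE 0.16, adjusted p = 0.135) at P16, and was called on neither day without the block. Set against the control of the same number, the P16 ratios were close to each other, from 1.35 to 1.42, and with the block the adjusted p was 0.00611. At P14 the ratios were spread from 1.11 to 1.81, and the adjusted p with the block was 0.282.

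Igf2 encodes the second ligand, which is best known for its role in fetal growth, and is an imprinted gene on chromosome 7 (142650766 to 142666816, minus strand). The 6 P14 libraries had 8228, 3482 and 3779 normalized reads in control and 5596, 2942 and 3502 in dMF1/2. Replicate 1 was the highest of both genotypes. The 6 P16 libraries had 1256, 2212 and 1417 in control and 2190, 2784 and 2760 in dMF1/2, so that dMF1/2 replicate 1 lay just below control replicate 2 and the groups overlapped. Between genotypes, the log2 fold change came to -0.30 (SE 0.37, adjusted p = 0.973) at P14 and 0.70 (SE 0.20, adjusted p = 0.104) at P16. With the block the adjusted p at P16 was 0.0157, and dMF1/2 was higher in 3 of 3 pairs by 1.26 to 1.95 times. DESeq2 also called it at P16 (adjusted p = 0.0240). Of the limma fits with 1 P16 library left out, the one without control replicate 2 called Igf2 (log2 fold change 0.94, adjusted p = 0.0134). The others did not. Control replicate 2 is the control sample by which the groups overlapped, so the call without it is no separate support. Of the exon length of Igf2, 62.8% is shared on the same strand with Gm49394, a gene absent from the tables, and reads of the shared part cannot be assigned to one of them.

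Igf1r encodes the receptor that binds both ligands (chromosome 7, 67952827 to 68233668, plus strand). Control samples had 6366, 5924 and 6038 normalized reads at P14 and 9179, 6206 and 7926 at P16. In dMF1/2 it had 6983, 5237 and 5571 at P14 and 7050, 5553 and 7645 at P16. The genotypes overlapped on both days. Its log2 fold change was -0.05 (95% interval -0.35 to 0.24) at P14 and -0.20 (95% interval -0.59 to 0.19) at P16, with adjusted p of 0.996 and 0.608.

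At P16, the largest difference between genotypes among the 9 genes was that of Igfbp3, the main carrier of IGFs in blood, which is also made by many mesenchymal cells. The gene lies on chromosome 11 (7206086 to 7213923, minus strand). The 3 control libraries had 145089, 67683 and 80792 normalized reads and the dMF1/2 libraries 26984, 11128 and 14273. The lowest control sample was above the highest dMF1/2 sample. Expression was thus lower in dMF1/2, by a log2 fold change of -2.51 (SE 0.37, 95% interval -3.37 to -1.65), or 5.70-fold (adjusted p = 0.0123, and 8.88e-05 with the block). Replicate 1 was the highest of both groups and replicate 2 the lowest, and the ratio of dMF1/2 to control within a pair was between 0.164 and 0.186. The same replicate 1 had the lowest DP marker sum of each P16 group, 53820 in control and 107414 in dMF1/2. The part of this in its Igfbp3 values was not tested. Without P16 dMF1/2 replicate 3, the adjusted p was 0.0611 and the log2 fold change -2.42, and the 5 other fits with 1 library left out kept the call.

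At P14, Igfbp3 had 24681, 9540 and 50036 normalized reads in control and 11345, 7634 and 8974 in dMF1/2. The control samples were widely spread, and the lowest of them lay between the dMF1/2 samples. This gave a log2 fold change of -1.31 (SE 0.54, adjusted p = 0.671, and 0.139 with the block), with dMF1/2 lower in 3 of 3 pairs by a ratio of 0.179 to 0.800.

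Beside Igfbp3, 1 of 9 endothelial markers (Plvap) and 1 of 7 pericyte markers (Cspg4) were called lower in dMF1/2 at P16, and 0 of either list higher, where 4.32% of all genes were called. The endothelial sums were 1789 to 2854 in control and 1457 to 1636 in dMF1/2. Kdr, an endothelial marker that was not called, went the other way, with 90, 250 and 260 in control and 278, 287 and 501 in dMF1/2. The pericyte sums were 34324 to 42452 in control and 19900 to 25832 in dMF1/2, and Cspg4 alone had 15512, 9408 and 12045 in control and 3873, 2191 and 2896 in dMF1/2. The sums of the 16 DP markers were 53820 to 94891 in control and 107414 to 158912 in dMF1/2, where Alpl, Alx4, Bmp6, Fgf10, Ndp and Prom1 were called higher and Crabp1 lower. With the block, as in the calls of Igf1, Igf2 and Igfbp4, 13 of the 16 DP markers were called higher and 1 lower, and 3 endothelial markers (Esam, Pecam1 and Plvap) and 2 pericyte markers (Abcc9 and Cspg4) were called lower, where 10.4% of all genes were called. The sums did not overlap between genotypes in any of these lists, nor for melanocyte markers (897 to 984 in control and 789 to 887 in dMF1/2). Those of the other lists overlapped, among them dermal sheath (14453 to 31943 and 13950 to 25277) and dermal fibroblast markers (187068 to 247567 and 176377 to 252202). Without the block, the adipocyte marker Plin1, 1 of 2 tested, was called higher (2.18% of all genes). The part of the marker differences in the levels of Igfbp3, Igf1, Igf2 and Igfbp4 was not tested.

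Igfbp4, a binding protein that inhibits IGF action and is a substrate of the pappalysin PAPP-A, lies on the same chromosome (11, 99041244 to 99054392, plus strand). At P14 it had 12510, 10125 and 8851 normalized reads in control and 15101, 14393 and 12419 in dMF1/2, where the lowest dMF1/2 sample was just below the highest control sample. At P16 it had 6808, 7818 and 7368 in control and 8069, 10857 and 10643 in dMF1/2, which did not overlap. The log2 fold change was 0.42 on both days (SE 0.16 at P14 and 0.13 at P16), with adjusted p of 0.602 and 0.126. With the block the adjusted p was 0.0748 at P14 and 0.0240 at P16, and dMF1/2 was higher in all 3 pairs on each day. DESeq2 called it at P16 (adjusted p = 0.0404), and with the block also at P14 (adjusted p = 0.00769, where 2.72% of all genes were called).

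Igfbp2 and Igfbp5 are neighbors on chromosome 1, 5457 bases apart and on opposite strands (Igfbp2 at 72824503 to 72852474, Igfbp5 at 72857932 to 72874884). At P14, Igfbp2 had 763, 6909 and 4657 normalized reads in control and 1301, 6670 and 4744 in dMF1/2. Igfbp5 had 20720, 61224 and 52206 in control and 20222, 54807 and 52442 in dMF1/2. For both genes replicate 1 was far below the other replicates in both genotypes, and same-numbered samples were near each other. Between genotypes, the log2 fold change at P14 was 0.25 (95% interval -1.90 to 2.40) for Igfbp2 and -0.06 (95% interval -1.31 to 1.18) for Igfbp5, and without replicate 1 of both genotypes it was -0.01 and -0.08.

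At P16 replicate 1 no longer stood apart for these genes. Igfbp2 had 2507, 2800 and 2654 normalized reads in control and 1688, 2680 and 1957 in dMF1/2, a log2 fold change of -0.36 (SE 0.16, adjusted p = 0.271). Without P16 dMF1/2 replicate 2, the highest of its group, the value was -0.54 with an adjusted p of 0.0481. Igfbp5, which binds to the extracellular matrix as well as to IGFs, had 49675, 62031 and 44802 in control and 38899, 61010 and 39455 in dMF1/2, a log2 fold change of -0.19 (95% interval -0.69 to 0.31, adjusted p = 0.726). Both genes overlapped between genotypes.

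**Figure D3:**
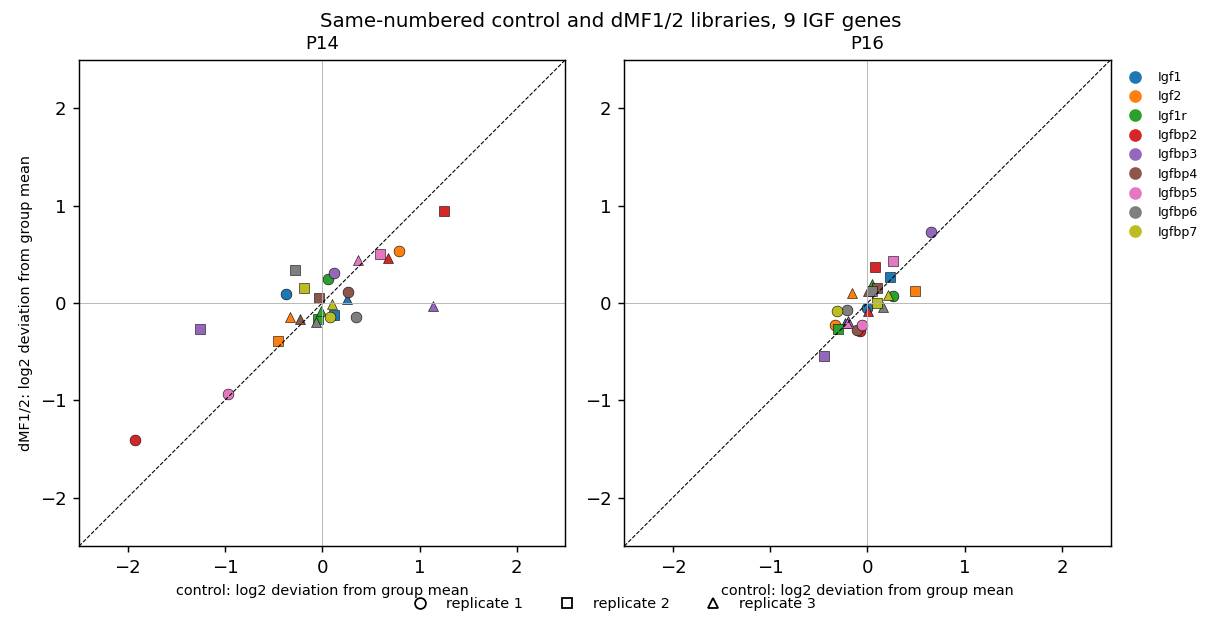
Deviation of each control library (horizontal axis) and of the dMF1/2 library of the same number (vertical axis) from its group mean on the log2 scale, for the 9 IGF genes at P14 and P16, with a dashed line of equality. At P14 Igfbp2 and Igfbp5 of replicate 1 lie far below the mean in both genotypes, and at P16 Igfbp3 of replicates 1 and 2 lies near the line.

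Igfbp6, a binding protein with a preference for IGF2, lies on chromosome 15 (102144362 to 102149511, plus strand). It had 5662, 3669 and 4245 normalized reads in control and 4106, 5738 and 3948 in dMF1/2 at P14, and 2630, 3129 and 3392 against 2698, 3083 and 2750 at P16. The genotypes overlapped on both days, with log2 fold changes of 0.03 (95% interval -0.45 to 0.50) and -0.10 (95% interval -0.35 to 0.16).

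Igfbp7 encodes a secreted protein that binds IGFs weakly and is abundant in vessels and mesenchyme (chromosome 5, 77349240 to 77408041, minus strand). Its 14035, 11619 and 14240 normalized reads in control at P14 were all above the 9256, 11403 and 10123 in dMF1/2. The log2 fold change was -0.37 (SE 0.13, adjusted p = 0.581). At P16 it had 8294, 11019 and 11907 in control and 8091, 8578 and 9030 in dMF1/2, which overlapped (log2 fold change -0.27, SE 0.14, adjusted p = 0.368). It was lower in dMF1/2 in 3 of 3 pairs on each day, a sameness of direction seen for 34.5% of all genes at P14 and 48.1% at P16, and was called on neither day with the block.

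**Figure D4:**
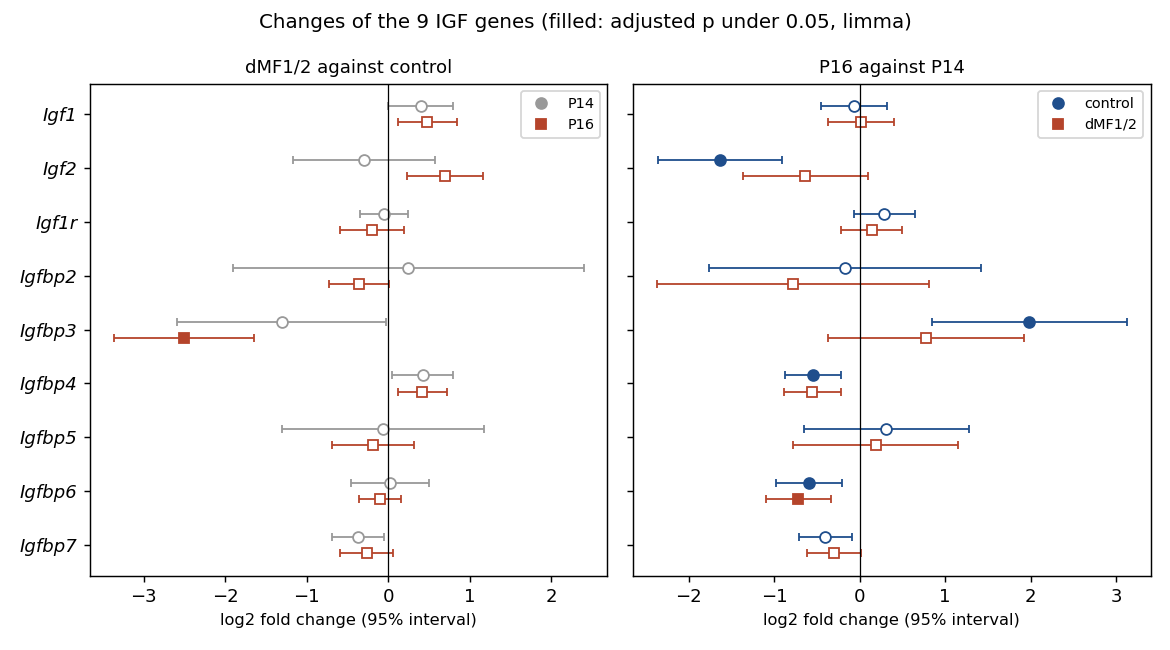
Log2 fold changes of the 9 IGF genes with 95% intervals, for dMF1/2 against control at P14 and P16 (left) and for P16 against P14 in control and dMF1/2 (right), where filled symbols have an adjusted p under 0.05 by limma without a block. Igfbp3 is filled for the genotypes at P16, and Igf2, Igfbp3, Igfbp4 and Igfbp6 are filled between days in control.

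Between P14 and P16, 4 of the 9 members were called in control mice, where 14.5% of 13415 genes were called. Igfbp3 was higher at P16, as were 6.26% of all genes, and Igf2, Igfbp4 and Igfbp6 were lower, as were 8.28%. DESeq2 also called Igfbp7 lower and had 18.0% of all genes called. In dMF1/2 mice 1 of the 9 was called, Igfbp6, where 5.8% of all genes were called, and DESeq2 called Igfbp4 as well (9.9% of all genes). The days did not overlap for 5 of the 9 members in control (36.0% of all genes) and for 4 of the 9 in dMF1/2 (27.6%). For these comparisons, the reads of both days were rescaled together and all 12 libraries were fitted in one model. The median log2 fold change of the members was -0.17 in control and -0.30 in dMF1/2, and that of all genes 0.01 in each. The day comparison in control and the genotype comparisons share the same control samples.

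Igf2 had 8333, 3532 and 3828 rescaled reads at P14 in control and 1238, 2175 and 1400 at P16. All P16 samples lay below all P14 samples, and the log2 fold change was -1.63 (SE 0.33, adjusted p = 0.0109), or 3.10-fold lower. Igf2 stayed called with any 1 of the 6 control libraries left out, with log2 fold changes of -1.87 to -1.24 and adjusted p of 0.0117 to 0.0474. In dMF1/2 it had 5676, 2970 and 3536 at P14 and 2141, 2738 and 2709 at P16, a log2 fold change of -0.64 (SE 0.33, adjusted p = 0.281).

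Igfbp3 went the other way, from 24997, 9677 and 50697 rescaled reads at P14 in control to 143003, 66550 and 79797 at P16, with no overlap. The log2 fold change was 1.98 (SE 0.52, adjusted p = 0.0294), or 3.96-fold higher. The call was lost without P14 control replicate 1 (adjusted p = 0.0726) or 2 (0.0778) and without P16 control replicate 1 (0.109) or 3 (0.0649), with log2 fold changes between 1.36 and 2.55 over all such fits. In dMF1/2 it had 11506, 7705 and 9061 at P14 and 26382, 10941 and 14005 at P16, which overlapped, with a log2 fold change of 0.78 (SE 0.52, adjusted p = 0.414).

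Igfbp4 in control had 12670, 10269 and 8968 rescaled reads at P14 and 6710, 7687 and 7277 at P16, a log2 fold change of -0.55 (SE 0.15, adjusted p = 0.0349). In dMF1/2 it had 15316, 14529 and 12538 at P14 and 7889, 10675 and 10443 at P16, with a similar log2 fold change of -0.56 (SE 0.15) that missed the threshold (adjusted p = 0.0539, and 0.0117 with DESeq2). Neither genotype overlapped between days. The control call was kept without P14 control replicate 3 and lost in the 5 other fits with 1 control library left out, with adjusted p up to 0.123.

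Igfbp6 was lower at P16 in both genotypes. In control it had 5734, 3721 and 4301 rescaled reads at P14 and 2592, 3076 and 3351 at P16, a log2 fold change of -0.59 (SE 0.18, adjusted p = 0.0433). In dMF1/2 it had 4164, 5792 and 3986 at P14 and 2638, 3031 and 2698 at P16, a log2 fold change of -0.72 (SE 0.18, adjusted p = 0.0366). The groups did not overlap between days in either genotype. The call was kept in 1 of 6 fits with 1 library left out in each genotype, without P14 control replicate 2 and without P14 dMF1/2 replicate 1, and the adjusted p reached 0.151 in control and 0.139 in dMF1/2.

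Without replicate 1 of both genotypes at P14, the libraries that stood apart, 2 of the 9 members were called in each genotype, where 7.09% of all genes were called in control and 6.1% in dMF1/2. In control, Igf2 kept its call (log2 fold change -1.24, adjusted p = 0.0125) and Igfbp2 was called lower at P16 (-1.14, adjusted p = 0.0195), while Igfbp3 (2.04, adjusted p = 0.0711), Igfbp4 (-0.41, 0.102) and Igfbp6 (-0.42, 0.133) were not called. In dMF1/2, Igfbp6 (-0.79, adjusted p = 0.0232) and Igfbp2 (-1.48, adjusted p = 0.00713) were called lower. With all libraries, the log2 fold change of Igfbp2 was -0.17 (95% interval -1.77 to 1.42) in control and -0.78 (95% interval -2.38 to 0.81) in dMF1/2. Without P14 control replicate 2 instead, it was 0.45 in control. Replicate 1 held the lowest P14 values of Igfbp2 in both genotypes, so leaving it out by itself moves Igfbp2 toward a fall. That choice was made after seeing the data, and the Igfbp2 calls are no separate support for a fall.

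The other members were not called between days. Igfbp7 had log2 fold changes of -0.40 in control (adjusted p = 0.0764, and 0.0475 with DESeq2) and -0.30 in dMF1/2 (adjusted p = 0.235). The receptor gene Igf1r had 0.29 (95% interval -0.07 to 0.64) in control and 0.14 (95% interval -0.21 to 0.50) in dMF1/2. Igf1 was near 0, with -0.06 (95% interval -0.45 to 0.32) and 0.02 (95% interval -0.37 to 0.40), and Igfbp5 had 0.31 (95% interval -0.65 to 1.28) and 0.19 (95% interval -0.78 to 1.15). The difference between the genotypes in the change over days was tested as an interaction, and limma called 0 of the 9 members, where 0.0% of all genes were called and 4.83% had an unadjusted p under 0.05. No member had an unadjusted p under 0.05 in this test. The interaction was -1.21 (SE 0.74) for Igfbp3 and 0.997 (SE 0.47) for Igf2 on the log2 scale, both with an adjusted p of 1, and DESeq2 (0.04% of all genes called) and edgeR (0.0%) also called 0 of the 9.

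DP markers moved with the days in control as well. Alpl, Alx4, Bmp6, Corin, Fgf10, Fgf7, Lef1 and Sox18, 8 of the 16, were called lower at P16 in control, where 8.28% of all genes were, and 0 of the 16 were called in dMF1/2, where 5.8% of all genes were called. The pericyte sum in control was 20915 to 29149 at P14 and 34324 to 42452 at P16, with Cspg4 and Pdgfrb, 2 of the 7, called higher (6.26% of all genes), and the share of mitochondrial reads was 0.928 to 1.59% at P14 and 0.623 to 0.854% at P16 over both genotypes. Their part in the changes of Igf2, Igfbp3, Igfbp4 and Igfbp6 was not tested.

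Among 11 tested genes that set how much IGF is available, 2 were called at P16, where 4.32% of all genes were called, namely Pappa2 and Stc1, both lower in dMF1/2. At P14, 0 of the 11 were called, as were 0.0525% of all genes. Pappa2 encodes pappalysin 2, which cuts IGFBP3 and IGFBP5. At P16 it had 38727, 22645 and 29512 normalized reads in control and 6628, 4430 and 6170 in dMF1/2. The groups were far apart, with a log2 fold change of -2.39 (SE 0.22), or 5.23-fold lower in dMF1/2 (adjusted p = 0.00371, and 6.57e-05 with the block), and the call was kept with any 1 library left out. At P14 it had 12446, 11237 and 14049 in control and 7238, 4051 and 5294 in dMF1/2, which did not overlap. There the log2 fold change was -1.22 (SE 0.21, adjusted p = 0.180), and Pappa2 was called with the block (adjusted p = 0.00798) and by DESeq2 (adjusted p = 4.21e-05).

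Stc1, which encodes the pappalysin inhibitor stanniocalcin 1, had 1080, 367 and 513 normalized reads in control at P16 and 173, 135 and 122 in dMF1/2. Its log2 fold change was -2.05 (SE 0.35, adjusted p = 0.0197), and the call was lost without P16 control replicate 3 (adjusted p = 0.0658), P16 dMF1/2 replicate 2 (0.0628) or P16 dMF1/2 replicate 3 (0.0892). At P14 it had 176, 253 and 304 in control and 84, 150 and 126 in dMF1/2, with a log2 fold change of -1.03 (SE 0.27, adjusted p = 0.374, and 0.0173 with the block). No sample of dMF1/2 reached the lowest control sample on either day. As for Igfbp3, P16 replicate 1 was the highest of both groups for Pappa2 and Stc1 and had the lowest DP marker sums, whose part was not tested.

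**Figure D5:**
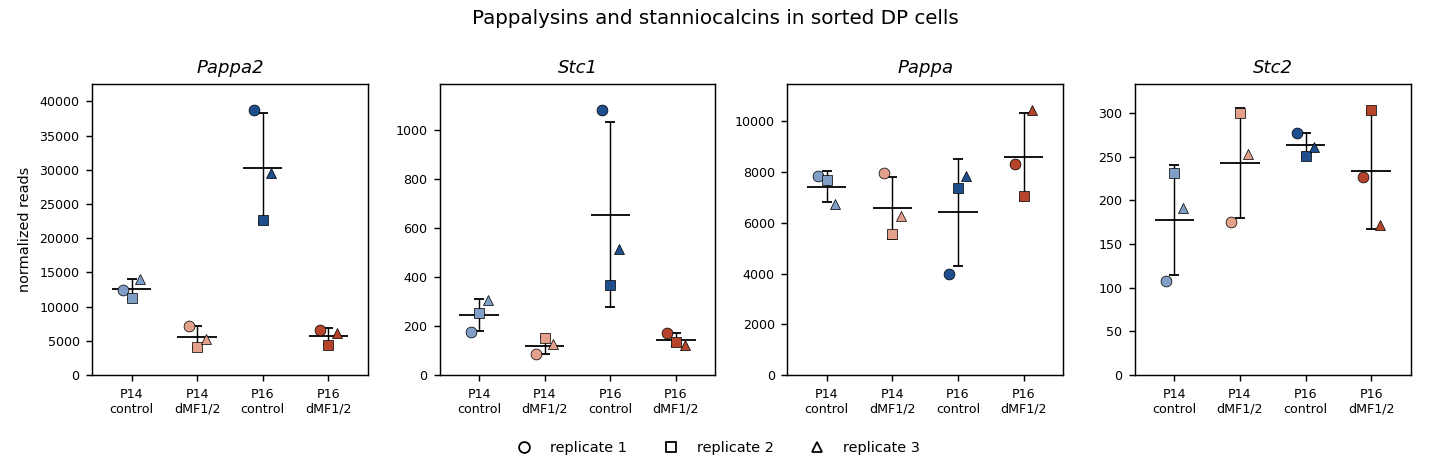
Normalized reads (linear axes from 0) of the pappalysin genes Pappa2 and Pappa and the stanniocalcin genes Stc1 and Stc2 in the 12 libraries, with the group mean and whiskers of 1 SD (n = 3). For Pappa2 and Stc1 the dMF1/2 samples lie below the control samples of the same day, while Pappa and Stc2 overlap between genotypes.

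Pappa, which encodes PAPP-A, had 3995, 7391 and 7847 normalized reads in control at P16 and 8316, 7075 and 10448 in dMF1/2, and overlapped (log2 fold change 0.47, SE 0.26, adjusted p = 0.388). At P14 its log2 fold change was -0.19 (adjusted p = 0.911). Stc2, the second stanniocalcin, was at 108 to 303 normalized reads in all libraries, with log2 fold changes of 0.49 at P14 and -0.21 at P16 (adjusted p = 0.871 and 0.649). Igf2r, whose product takes up IGF2 for degradation, had 5975, 5564 and 6192 in control at P16 and 5029, 5141 and 4635 in dMF1/2. These did not overlap, and the log2 fold change was -0.26 (SE 0.09, adjusted p = 0.142, and 0.0897 with the block).

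Over days, Pappa2 and Stc1 rose in control, 2 of the 11 where 14.5% of all genes were called, and 0 of the 11 were called in dMF1/2, where 5.8% were. Pappa2 went from 12605, 11397 and 14235 rescaled reads to 38170, 22266 and 29149 in control, an increase on the log2 scale of 1.20 (SE 0.24, adjusted p = 0.0100), and stayed called with any 1 control library left out. In dMF1/2 it had 7341, 4089 and 5345 at P14 and 6481, 4355 and 6054 at P16, a log2 fold change of 0.03 (95% interval -0.49 to 0.55). The interaction of Pappa2 was -1.17 (SE 0.34, unadjusted p = 0.00501, adjusted p = 1 by limma). For Stc1 the log2 fold change was 1.26 (SE 0.36, adjusted p = 0.0370) in control and 0.23 (95% interval -0.54 to 1.01) in dMF1/2. The control call of Stc1 was lost without P14 control replicate 1 or 2 and without P16 control replicate 1 or 3, with adjusted p up to 0.133.

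Of the receptors and adaptors that act beside IGF1R, 0 of 10 tested genes were called between genotypes at P16 (4.32% of all genes) and 0 of 9 at P14 (0.0525%). The insulin receptor gene Insr had log2 fold changes of -0.13 at P14 and -0.17 at P16 (adjusted p = 0.888 and 0.562). The adaptor gene Irs1 had 0.31 and 0.15 (adjusted p = 0.800 and 0.492), and Irs2 had 0.02 and -0.30 (adjusted p = 0.999 and 0.368). With the block at P16, Grb10, an adaptor that binds these receptors and is named after its values were seen, was called higher in dMF1/2, 1 of the 10 where 10.4% of all genes were called. Between days, 1 of the 10 was called in control (14.5% of all genes) and 0 in dMF1/2 (5.8%). Irs2 rose in control from 3627, 4118 and 4301 rescaled reads to 7340, 5067 and 6378, a log2 fold change of 0.63 (SE 0.18, adjusted p = 0.0360), and the call was lost without P14 control replicate 1 or 2 and without P16 control replicate 1 or 3 (adjusted p up to 0.132).

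In the list of 22 genes of PI3K, AKT, FOXO and mTOR signaling, which carry the signal inside the cell, 0 were called between genotypes on either day without the block, where 0.0525% of all genes were called at P14 and 4.32% at P16. Over days, 5 of the 22 rose in control and 0 fell, where 6.26% of all genes rose and 8.28% fell, and 3 of the 5 are described here. Pik3ca, the catalytic subunit of PI3K, had a log2 fold change of 0.39 (SE 0.09, adjusted p = 0.0144). The transcription factor gene Foxo3 had 0.56 (SE 0.14, adjusted p = 0.0268) and Rictor, a subunit of mTOR complex 2, had 0.55 (SE 0.13, adjusted p = 0.0214). Each of these 3 calls was lost in at least 2 of the 6 fits with 1 control library left out, namely without P16 control replicate 1 for all 3, and also without P14 control replicate 1 for Pik3ca and Foxo3, without P14 control replicate 2 and P16 control replicate 3 for Foxo3 and Rictor, and without P16 control replicate 2 for Foxo3. In dMF1/2, Pik3ca (log2 fold change 0.39, adjusted p = 0.0228) and Pik3cb, the latter named after its values were seen, were called higher at P16, 2 of the 22 where 5.8% of all genes were called.

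For each member called in a comparison without the block, the genes whose pattern over the 12 libraries was nearest were sought among 10238 genes with a mean of at least 100 rescaled reads. Nearness was the root-mean-square difference on the log2 scale after each gene was centered on its own mean. For Igf2, which itself varied by 0.74 around its mean, the nearest were Cdkn1c, a cell cycle inhibitor gene that is imprinted and also lies on chromosome 7 (difference 0.27), the chemokine gene Cxcl14 (0.28) and the cadherin gene Cdh6 (0.28). Igfbp3 varied by 1.37, and its nearest genes were the transcription factor gene Tfap2a (0.38), the small heat shock protein gene Hspb1 (0.41) and the glycosyltransferase gene Galnt15 (0.43). For Igfbp4, which varied by 0.38, they were the homeobox gene Hoxb4 on the same chromosome (0.10), the ephrin gene Efnb1 (0.13) and the GDNF receptor gene Gfra1 (0.13). Igfbp6 varied by 0.38, with Cyba (0.14), Tsc22d4 (0.15) and 2810428I15Rik (0.15) nearest.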

How the data were processed

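RNA of FACS-sorted YFP-positive DP cells was depleted of ribosomal RNA, made into stranded libraries and sequenced as 61-base single-end reads. The authors used Trimmomatic for trimming, TopHat2 (version 2) for mapping to mm10, HTSeq for counting per Ensembl gene of GRCm38.p4 and DESeq2 for normalization. The strand setting of the counting is not given in the sources used here, and 85 exon bases of Igfbp7 overlap Polr2b on the opposite strand. Each day has 1 deposited table of signal values, which are reads per protein-coding gene divided by size factors that the authors estimated from the 6 libraries of that day. The deposited log2 fold changes, test scores and p-values hold the authors' own DESeq2 comparison and were not used. All values (100.0%, within 0.001) were whole multiples of 1 constant per library, so that whole reads were recovered.

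Genotypes were compared within a day in the deposited scaling, with limma 3.58.1 in R 4.3.3 on log2(value + 1). A fold change on this scale understates the change of low genes. Genes needed a mean of at least 10, and the threshold was an adjusted p (Benjamini-Hochberg) of 0.05. Days were compared on the recovered reads of the 14986 shared genes, brought to a common scale across the 12 libraries with median-of-ratios factors. DESeq2 1.42.0, edgeR 4.0.16, pseudocounts of 0.1 and 10, TMM, no filter, the replicate block and leaving out each library were alternatives. The scripts were tested on simulated reads. Exon lengths and gene positions are from GENCODE vM21 (GRCm38).

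Same-numbered libraries of a day correlated in their deviations from the group means across genes (0.586, 0.389 and 0.304 at P14, and 0.256, 0.293 and 0.311 at P16), so the numbers, which come from the sample labels, were taken to pair samples within a day. The members, gene lists and marker lists were chosen with earlier results of these data known. All members are named. Of the pathway lists, genes called between genotypes at P16 or between days in control are named (the 4 lowest adjusted p per list), with Igf2r, Insr, Irs1, Irs2, Pappa, Pappa2, Stc1 and Stc2 in any case. Igfbp1, Igfbpl1 and Irs4 are not in both tables and were not analysed here. Some results of the pathway lists are not reported here.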

Additional observations from a re-analysis of the deposited data

How the results depend on the processing

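TMM scaling, edgeR without a block, pseudocounts of 0.1 or 10 and dropping the filter on low values left the number of members called unchanged in all 5 comparisons. The libraries pair within a day, and with the replicate block the count at P16 went from 1 to 4 by limma and edgeR and from 3 to 4 by DESeq2. At P14, 1 member was called by DESeq2 with the block and 0 otherwise. Between days the same numbers did not pair libraries (correlations of -0.0545, -0.0621 and -0.130 in control and 0.0292, 0.208 and -0.162 in dMF1/2), and the block called 0 in each genotype, where it called 14 genes in control and 137 in dMF1/2 in all, against 1951 and 778 without it. A fit of the 6 libraries compared called 1 in control and 0 in dMF1/2, where it called 806 and 322 genes in all. DESeq2 called 2 in dMF1/2. Leaving out 1 library gave 0 to 2 calls between genotypes at P16, 1 to 3 between days in control (4 with all libraries) and 0 to 1 in dMF1/2. Without replicate 1 of both genotypes at P14, 2 were called between days in each genotype. The last alternative, and DESeq2 and edgeR with the block, were chosen after seeing the data. Over all genes, the calls between genotypes at P14 were 7 by limma, 2 by edgeR, 205 by DESeq2, and with the block 224, 239 and 365. At P16 they were 582, 589 and 1114, and with the block 1403, 1411 and 1191. With 1 library left out, limma called 0 to 18 genes at P14. At P16 it called 149 without P16 dMF1/2 replicate 3, 184 without P16 control replicate 3 and 306 without P16 dMF1/2 replicate 2. Between days in control, dropping replicate 1 gave 782 calls when the P14 library was dropped and 693 when it was the P16 library, dropping replicate 2 of P14 gave 1044, and dropping replicate 3 of P16 gave 971. Between days in dMF1/2, dropping replicate 2 or 3 of P14 gave 342 and 287 calls, and dropping replicate 1 or 3 of P16 gave 257 and 350. The other counts with 1 library left out on P16 or between days were within 1.5 times those with all libraries. DESeq2 called 1311 genes between days in dMF1/2, and for the interaction limma and edgeR called 0 (648 at an unadjusted p under 0.05) and DESeq2 6.

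Directions turned for uncalled genes alone. At P14, with 1 library left out, the log2 fold change between genotypes ranged from -0.57 to 0.091 for Igf2, from -0.18 to 0.031 for Igf1r, from -0.72 to 0.95 for Igfbp2, from -0.55 to 0.41 for Igfbp5, from -0.145 to 0.199 for Igfbp6 and from -0.22 to 0.031 for Fgfr2, and without both replicates 1 it was -0.012 for Igfbp2. Fgfr2 at P16 ranged from -0.086 to 0.13 and was 0.000152 by DESeq2 and 0.000187 by edgeR. Between days, Igf1 ranged from -0.25 to 0.062 in control and from -0.12 to 0.12 in dMF1/2, Igfbp2 from -1.14 to 0.45 in control, and Igfbp5 from -0.17 to 0.61 in control and from -0.28 to 0.43 in dMF1/2, and the lowest values of Igfbp5 are also those without both replicates 1. The cause was not tested. With 3 samples a group, the width of the intervals limits what can be said of Igfbp2 and Igfbp5 at P14.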
